A study of Rosa rugosa with 9 samples.

Results

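Roots of Rosa rugosa 'Zizhi' that received the high humic acid replacement (HA2) were set against roots on full phosphate (CK), across all genes of one deposited count table. The comparison rests on 6 of the 9 libraries of the series, 3 of HA2 and 3 of CK, and on 25260 genes tested of 47983 in the table. Per the labels, greenhouse plants that were 1 year old stood in sand and were watered weekly with 200 ml per pot of a complete nutrient solution for 37 weeks, and polyadenylated RNA was taken from their tender roots. HA2 plants received 0.0368 g of ammonium dihydrogen phosphate, which is 40% of the control phosphorus, with 0.0552 g of humic acid. CK plants received 0.092 g of the salt and no humic acid. The phosphate salt also carries ammonium, so less phosphate, less ammonium and more humic acid came together and cannot be told apart. The third group of the series, HA1, had 0.0552 g of the phosphate salt beside 0.0368 g of humic acid and enters here only as a side value. The labels do not tie a library to a single plant, so a p-value measures the spread between these libraries.

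Plants short of phosphate take it up through root transporters of the PHT1 family, release it from organic compounds with secreted acid phosphatases and exchange membrane phospholipids for galactolipids and sulfolipids. SPX domain proteins sense inositol pyrophosphates and hold back the PHR transcription factors that drive this response. Many land plants also obtain phosphate from arbuscular mycorrhizal fungi, through transporters and lipid-export genes that root cells use around the fungal arbuscule. Humic acids are a mixture of large organic molecules from decayed plant matter.

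Total counts were 36669889, 40350494 and 42988605 in HA2 and 39806552, 33847262 and 34717712 in CK. Levels are given in CPM, counts scaled to a common library size and by TMM, a correction for differences in RNA composition, and 3 counts correspond to 0.0637 to 0.0870 CPM. One library in each group differed from the rest of its group. Across the log2 CPM of the tested genes, HA2 replicate 3 correlated at 0.920 and 0.926 with the other HA2 libraries, which correlated at 0.969 with each other, and at 0.935, 0.945 and 0.930 with CK replicates 1 to 3. HA2 replicates 1 and 2 both lay above all CK libraries in 5938 genes, and HA2 replicate 3 lay within the CK range in 2294 of these. Of the 6279 genes where HA2 replicates 1 and 2 both lay below all CK libraries, it lay within the CK range in 2432. CK replicate 2 correlated at 0.929, 0.946 and 0.945 with HA2 replicates 1 to 3 and at 0.947 and 0.939 with the other CK libraries, which correlated at 0.965 with each other. Values of each library are therefore given in the order of replicates 1, 2 and 3, and the counts over all genes are given with and without these libraries.

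One gene passed the test over all genes. The probable inactive receptor kinase At2g26730 (Rru02G076220), a leucine-rich repeat receptor kinase of a type that lacks some catalytic residues, had 7.598, 5.41 and 7.84 CPM in HA2, against 0.446, 0.709 and 0.588 CPM in CK. No HA2 library came near the CK range. It rose by 3.58 ± 0.34 on the log2 scale (SE, 3 libraries in each group), or 11.96-fold, with a Benjamini-Hochberg adjusted p of 0.0485 by the quasi-likelihood test of edgeR. That is 0.00396% of the genes tested. Over the alternative edgeR settings its adjusted p ran from 0.00631 to 0.325 and its log2 fold change stayed between 3.29 and 3.73 over all settings. The call was lost with the replicate number as a block, where 0 genes passed and its adjusted p was 0.138. Its level in HA1 was 3.80 ± 1.23 CPM (mean ± SD), and HA2 differed from HA1 by 0.87 ± 0.30 (log2, edgeR adjusted p = 0.232), which did not pass.

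No other gene passed by edgeR, and 653 genes shared the next adjusted p of 0.132. Without any adjustment, 3107 genes (12.3%) were higher and 2126 (8.42%) lower in HA2 at an edgeR p under 0.05. DESeq2, which estimates the spread of each gene differently, called 1681 genes higher (6.65%) and 622 lower (2.46%), together 9.12%, at an adjusted p under 0.05. Without HA2 replicate 3, edgeR called 1212 of 25805 genes higher (4.70%) and 622 lower (2.41%), together 7.11%, and without CK replicate 2 it called 1421 genes. In the authors' deposited table, DESeq2 had 280 genes higher and 94 lower in HA2 at their stricter limits of a false discovery rate of 0.01 and a 2-fold change. In what follows, "rose" is kept for the receptor kinase gene, and every other gene is described by its values.

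**Figure D1:**
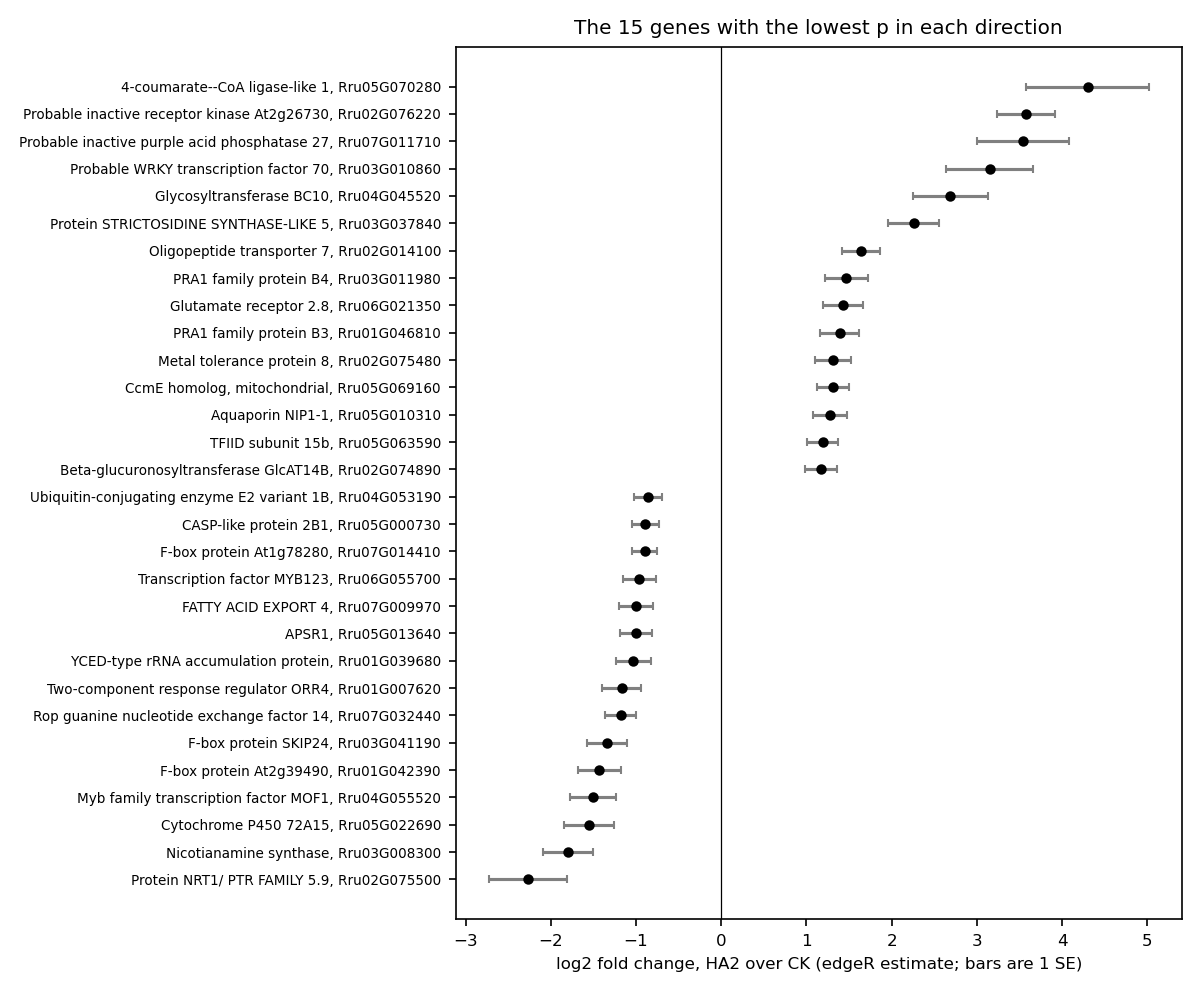
The edgeR log2 fold change of HA2 over CK (horizontal axis, with bars of 1 SE) for the 15 genes with the lowest p in each direction among described genes whose groups did not overlap and whose higher group averaged 5 CPM or more. The receptor kinase gene at 3.58 is the one gene past the threshold, and 4-coumarate--CoA ligase-like 1, with 5.66, 1.89 and 12.8 CPM in HA2, has the widest bar among the higher genes.

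Genes with low p and higher values in HA2 included transport, metal handling and regulatory genes. Oligopeptide transporter 7 (Rru02G014100), a carrier of short peptides, had 23.7, 22.9 and 15.7 CPM in HA2, against 5.94, 7.74 and 6.35 CPM in CK. Aquaporin NIP1-1 (Rru05G010310), a membrane channel, had 21.6, 23.6 and 18.98 CPM in HA2, against 8.896, 9.98 and 7.48 CPM in CK. Metal tolerance protein 8 (Rru02G075480), a manganese transporter in Arabidopsis, had 29.8, 23.9 and 18.8 CPM in HA2, against 9.49, 11.6 and 8.18 CPM in CK. The rule that picked the genes of this paragraph and the next required that the groups not overlap, so their separation is no added result. Glutamate receptor 2.8 (Rru06G021350), of a family of calcium channels, had 8.24, 9.54 and 7.82 CPM in HA2, against 2.57, 3.997 and 2.92 CPM in CK. PRA1 family protein B4 (Rru03G011980), of a family found in the secretory pathway, had 125.8, 101.3 and 71.6 CPM in HA2, against 35.5, 43.7 and 28.6 CPM in CK. WRKY transcription factor 70 (Rru03G010860), a regulator of salicylic acid and jasmonate defences in Arabidopsis, had 32.05, 13.2 and 12.7 CPM in HA2, against 1.76, 3.09 and 1.67 CPM in CK, a log2 fold change of 3.15 ± 0.51. HA2 replicate 1 was the high one there, and both others still stood well above CK. Inactive purple acid phosphatase 27 (Rru07G011710) had 7.92, 6.63 and 2.12 CPM in HA2, against 0.616, 0.397 and 0.3998 CPM in CK, with the lowest value in HA2 replicate 3.

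Genes with lower values in HA2 included metal chelation, transport and signalling genes. Nicotianamine synthase (Rru03G008300), which makes a chelator that carries iron, zinc and copper, had 7.66, 9.01 and 11.3 CPM in HA2, against 38.4, 38.5 and 20.8 CPM in CK, a log2 fold change of -1.80 ± 0.29. NRT1/PTR 5.9 (Rru02G075500), of a transporter family for nitrate and peptides, had 1.36, 0.971 and 1.02 CPM in HA2, against 8.32, 3.23 and 4.68 CPM in CK, a log2 fold change of -2.27 ± 0.46. Rop guanine nucleotide exchange factor 14 (Rru07G032440), of a family that activates ROP GTPases in cell growth, had 8.85, 9.21 and 10.8 CPM in HA2, against 23.7, 17.3 and 24.6 CPM in CK. All 3 kept their HA2 values within a narrow band, and the rule required them to lie below CK. Response regulator ORR4 (Rru01G007620), of the cytokinin signalling chain, had 3.13, 2.86 and 3.92 CPM in HA2, against 7.24, 6.15 and 8.91 CPM in CK. Transcription factor MYB123 (Rru06G055700), of the group that in Arabidopsis directs proanthocyanidin synthesis, had 30.9, 33.1 and 25.9 CPM in HA2, against 53.3, 69.4 and 51.8 CPM in CK. The 30 genes of this rule had edgeR adjusted p values of 0.132, apart from the receptor kinase gene. All 30 passed without HA2 replicate 3, as did 7.11% of all genes. No gene passed without HA2 replicate 1, HA2 replicate 2, CK replicate 1 or CK replicate 3. The 30 were picked by low p in these same libraries, so their passing is a description and no separate support.

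Across all genes, the 3 HA2 values lay above the 3 CK values in 2785 genes (11.0%) and below them in 2726 (10.8%). This count without overlap, called "apart" from here on, is set beside each gene list, with the median log2 fold change, which was -0.03 over all genes. Scaling by total count moved that median to -0.33 and the counts to 1214 higher and 5907 lower of 25260 genes. List counts scaled by total count are to be read against these. With it the larger count of members apart changed side in 21 of 45 lists, while the median relative to all genes kept its sign in 44. Taking the median of log2(CPM + 1) over members as a list's level, in 15 lists the 3 HA2 libraries had levels above those of the 3 CK libraries, and in 2 lists below them. In whole roots, fewer cells of a type and less RNA per cell cannot be told apart.

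**Figure D2:**
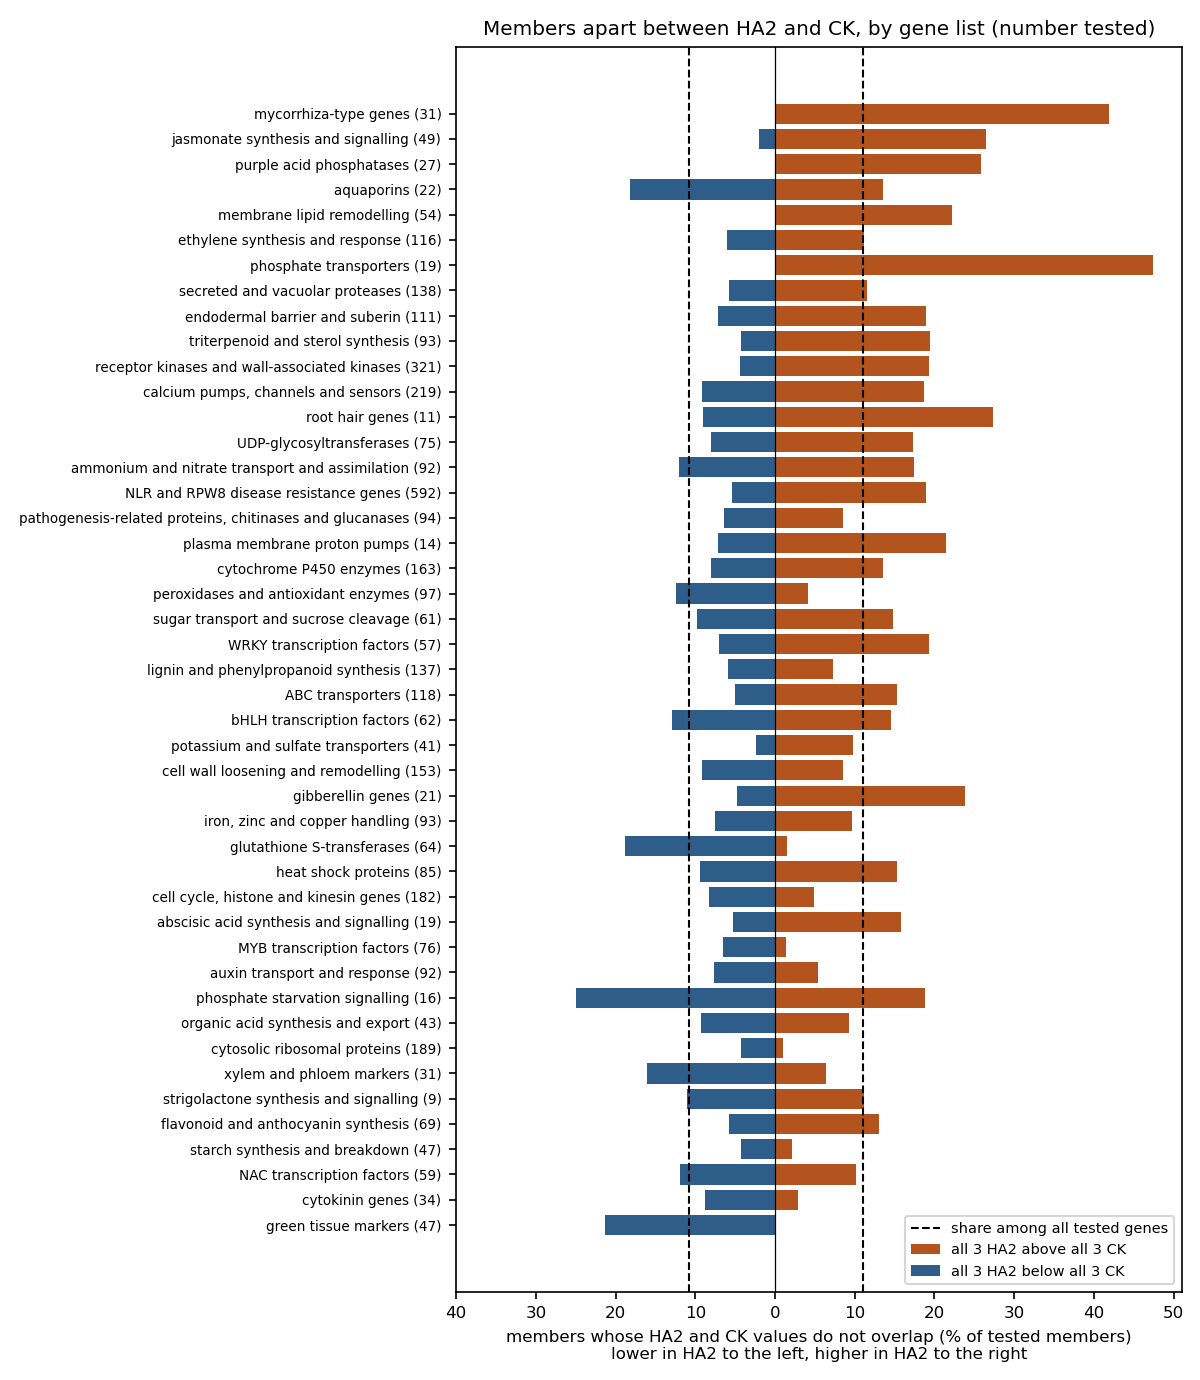
Share of tested members whose HA2 and CK values did not overlap, in percent, for 45 gene lists ordered by median log2 fold change, with lower in HA2 to the left and higher in HA2 to the right, and the number tested in brackets. Dashed lines mark the shares among all tested genes, 11.0% higher and 10.8% lower, and phosphate transporters (47.4%) and mycorrhiza-type genes (41.9%) have the longest bars to the right.

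**Figure D3:**
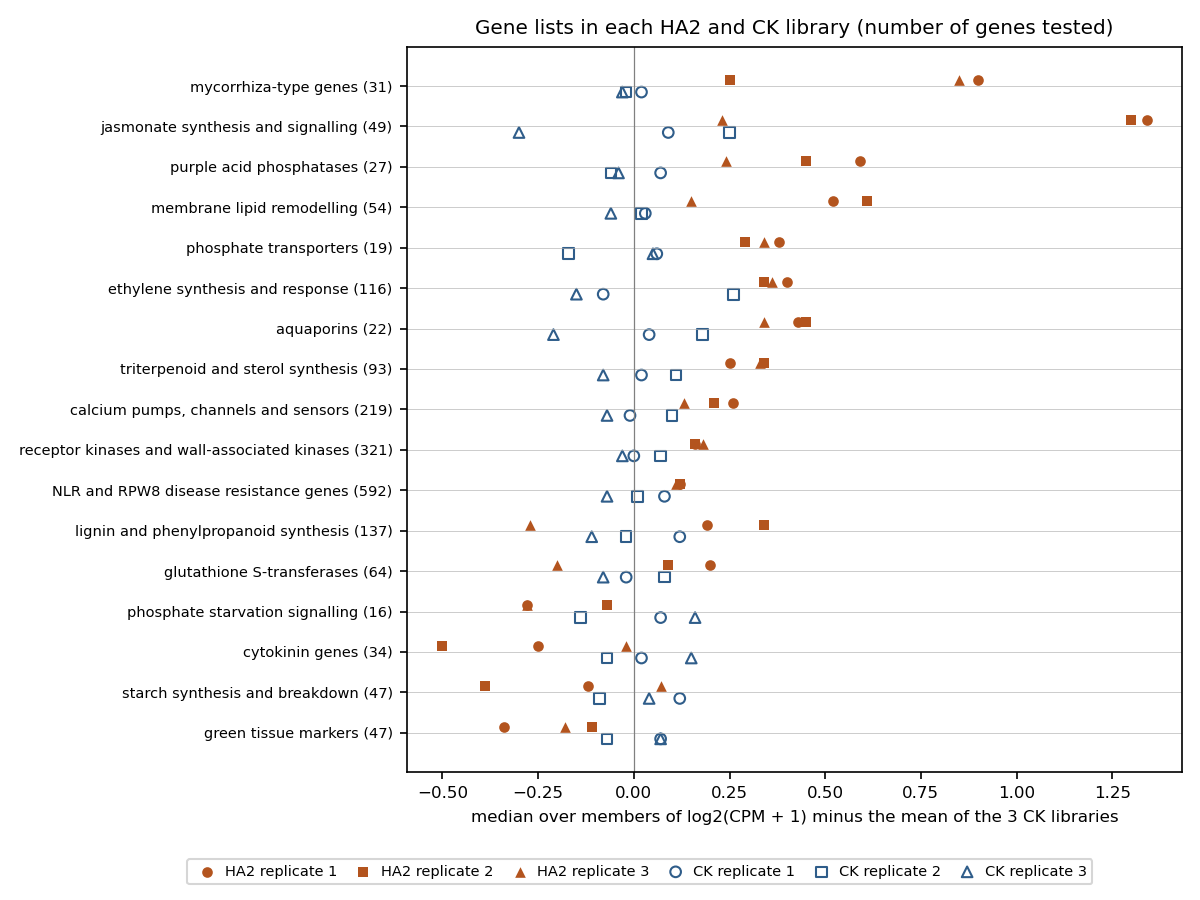
Level of 17 gene lists in each library, as the median over members of log2(CPM + 1) minus the mean of the 3 CK libraries (horizontal axis), with filled symbols for HA2 above open symbols for CK. For jasmonate genes HA2 replicates 1 and 2 lie at 1.34 and 1.30 and replicate 3 at 0.23, and for mycorrhiza-type genes replicates 1 and 3 lie at 0.90 and 0.85 and replicate 2 at 0.25.

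Of 19 phosphate transporter genes tested, 9 were apart and higher in HA2 and 0 lower (5 and 1 scaled by total count). The median log2 fold change was 0.44. edgeR called 0 of them and DESeq2 5 higher, where DESeq2 called 6.65% of all genes higher. Both the 9 and the 5 include the fungus-linked genes Rru01G053270, Rru01G053280 and Rru01G047790, which were near 0 in CK. Such genes could pass the filter on low counts only through libraries where they were high. These counts are therefore a description that the filter favoured. The DESeq2 calls also include PHO1 homolog 3 and glycerol-3-phosphate transporter 5, given below. Inorganic phosphate transporter 1-4, a root uptake carrier, is present as a pair of genes. The first (Rru06G039720) had 190.8, 187.6 and 168.05 CPM in HA2, against 119.1, 148.8 and 83.3 CPM in CK. The second (Rru04G006030) had 228.9, 359.3 and 91.7 CPM in HA2, against 118.7, 44.4 and 90.2 CPM in CK, and its replicate 3 lay within the CK range. Phosphate transporter PHO1 homolog 3 (Rru04G049690), of a family of phosphate exporters, had 18.2, 19.9 and 17.03 CPM in HA2, against 1.698, 6.92 and 1.27 CPM in CK, a log2 fold change of 2.48 ± 0.78. Its 3 HA2 values were alike, and CK replicate 2 was the highest of CK. Glycerol-3-phosphate transporter 5 (Rru02G002250), which the list takes in by name, had 19.9, 17.8 and 17.004 CPM in HA2, against 12.1, 12.4 and 11.8 CPM in CK. These PHT1 and PHO1 genes were chosen after their values were seen. The fungus-linked members of the list are described with the mycorrhiza-type genes.

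The sensing and signalling genes had no common direction. Of 16 tested, 3 were apart and higher and 4 lower (1 and 4 scaled by total count), with a median of -0.07. SPX domain-containing protein 3, a negative regulator of the starvation response in Arabidopsis, is present as a pair. One copy (Rru01G027480) had 0.725, 0.832 and 0.171 CPM in HA2 and 0 in every CK library, where a count of 0 allows up to 3 counts. The other (Rru01G027490) had 5.71, 8.13 and 1.24 CPM in HA2, against 1.21, 0.624 and 1.199 CPM in CK. In both copies HA2 replicate 3 was the lowest of the HA2 libraries, and reads shared between the copies may be split. The second copy and the PHR gene of this list were chosen after their values were seen. SPX domain-containing protein 4 (Rru02G073540), which retains PHR factors outside the nucleus in rice when phosphate is ample, had 11.7, 15.9 and 19.3 CPM in HA2, against 27.8, 21.9 and 38.8 CPM in CK, a log2 fold change of -0.92 ± 0.28. The transcription factor PHOSPHATE STARVATION RESPONSE 1 (Rru06G038720), of the PHR family, which turns on starvation genes, had 52.03, 57.8 and 50.6 CPM in HA2, against 41.5, 46.1 and 36.7 CPM in CK. A kinase that makes inositol pyrophosphates (Rru02G074740) had 230.1, 249.7 and 30.1 CPM in HA2, against 47.5, 45.6 and 34.5 CPM in CK. Its first 2 HA2 libraries were far above CK and the third was below every CK library. Protein ALTERED PHOSPHATE STARVATION RESPONSE 1 (Rru05G013640), which acts in root growth in Arabidopsis, had 12.4, 12.7 and 18.6 CPM in HA2, against 26.3, 28.2 and 32.9 CPM in CK.

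Purple acid phosphatases free phosphate from organic esters. They had 7 of 27 tested members apart and higher, 0 apart and lower (3 and 2 scaled by total count) and a median of 0.81. DESeq2 called 8 of them higher, against 6.65% of all genes, and edgeR without HA2 replicate 3 called 6, against 4.70% of all genes. Purple acid phosphatase 17 (Rru07G000950) had 107.7, 116.6 and 48.9 CPM in HA2, against 18.1, 30.7 and 13.6 CPM in CK, a log2 fold change of 2.13 ± 0.58. One copy of purple acid phosphatase 18 (Rru05G032070) had 83.4, 74.7 and 62.1 CPM in HA2, against 29.9, 49.6 and 22.2 CPM in CK. Both genes were higher in every HA2 library than in any CK library. Purple acid phosphatase 22 (Rru03G021640) had 135.7, 145.02 and 43.6 CPM in HA2, against 52.5, 22.3 and 39.7 CPM in CK. Purple acid phosphatase 3 (Rru04G052140) had 17.7, 8.597 and 1.096 CPM in HA2, against 1.44, 0.935 and 0.823 CPM in CK. In this second pair HA2 replicate 3 fell within the CK range. A further pair had another order among the HA2 libraries. An inactive purple acid phosphatase 27 (Rru01G005350) had 2.29, 0.277 and 13.8 CPM in HA2, against 0.3397, 0.113 and 0.188 CPM in CK, and a gene annotated by a soybean purple acid phosphatase (Rru06G018030) had 1.57, 0 and 7.75 CPM in HA2, against 0.127, 0 and 0 CPM in CK. Here HA2 replicate 3 was the highest library and replicate 2 the lowest of HA2, within the CK range. PAP22, PAP3 and this last pair were chosen after their values were seen.

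Genes of membrane lipid remodelling had 12 of 54 tested members apart and higher and 0 lower, with a median of 0.59. Scaled by total count, 1 was apart and higher and 5 lower, although the list median stayed 0.61 above that of all genes. Monogalactosyldiacylglycerol synthase (Rru06G050530), which makes galactolipids, had 538.7, 601.6 and 55.3 CPM in HA2, against 43.5, 101.2 and 24.3 CPM in CK. Phospholipase A1-IIgamma (Rru07G023470), which cleaves fatty acids from lipids, had 151.8, 223.8 and 9.74 CPM in HA2, against 8.195, 5.103 and 1.86 CPM in CK. Glycerophosphodiester phosphodiesterase GDPD1 (Rru02G080420), which breaks down the head groups left from phospholipids, had 451.5, 411.98 and 183.2 CPM in HA2, against 148.1, 132.2 and 67.5 CPM in CK. In all 3 genes, HA2 replicates 1 and 2 stood well above CK and replicate 3 lay near or within its range. The sulfolipid enzyme SQD2 (Rru03G013460) had 75.8, 129.8 and 24.3 CPM in HA2, against 37.3, 15.6 and 30.1 CPM in CK. Phospholipase D zeta 1 (Rru03G007780), a starvation-induced lipase in Arabidopsis, had 17.5, 25.3 and 3.09 CPM in HA2, against 5.44, 0.822 and 3.55 CPM in CK. Non-specific phospholipase C4 (Rru01G018700) had 79.9, 176.5 and 17.2 CPM in HA2, against 37.3, 3.29 and 18.9 CPM in CK. These 3 known starvation markers overlapped between the groups through HA2 replicate 3, and CK replicate 2 was the lowest library in each. The galactolipid gene and these 3 were chosen after their values were seen.

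Jasmonate genes had high values in HA2 replicates 1 and 2 and values near CK in replicate 3. Of 49 tested, 13 were apart and higher and 1 lower (10 and 1 scaled by total count), with a median of 1.25. DESeq2 called 19 higher, where it called 6.65% of all genes higher. Without HA2 replicate 3, edgeR called 17 higher and 0 lower, against 4.70% and 2.41% of all genes. Jasmonate is made from membrane fatty acids by lipoxygenase, allene oxide synthase and OPDA reductase. Linoleate 13S-lipoxygenase 2-1 (Rru01G000790) had 206.9, 356.3 and 10.8 CPM in HA2, against 5.44, 5.22 and 2.56 CPM in CK, a log2 fold change of 5.44 ± 1.06. Allene oxide synthase 1 (Rru06G051490) had 701.6, 600.9 and 379.8 CPM in HA2, against 193.96, 220.5 and 127.7 CPM in CK. The reductase OPR3 (Rru02G009860) had 458.5, 431.4 and 254.6 CPM in HA2, against 161.5, 232.02 and 47.9 CPM in CK. These enzyme genes were higher in every HA2 library, with the smallest gap in replicate 3. A second OPR3 gene (Rru02G009840) had 1957, 2171 and 536.7 CPM in HA2, against 478.5, 904.6 and 53.5 CPM in CK. Its replicate 3 lay below CK replicate 2, and both OPR3 genes were chosen after their values were seen. Protein TIFY 6B (Rru07G001270), of the JAZ repressors that jasmonate signalling itself induces, had 179.9, 162.4 and 73.6 CPM in HA2, against 32.4, 51.1 and 28.7 CPM in CK. Linoleate 9S-lipoxygenase 5 (Rru04G016620), of a separate oxylipin branch, had 64.5, 120.9 and 0.536 CPM in HA2, against 0.425, 0.595 and 0.04703 CPM in CK. Its HA2 replicate 3 lay inside the CK range, while the other HA2 libraries lay far above any in CK.

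Central carbon, glycosylation and ion transport genes included members with the same order of HA2 libraries. ATP-citrate synthase, which makes cytosolic acetyl-CoA from citrate, had a beta chain gene (Rru04G036720) with 4561, 4837 and 1609 CPM in HA2, against 688.7, 1216 and 442.8 CPM in CK. Mitochondrial citrate synthase (Rru01G000400) had 530.3, 603.7 and 112.02 CPM in HA2, against 132.2, 127.1 and 87.7 CPM in CK. UDP-glycosyltransferase 82A1 (Rru02G062150) had 403.7, 428.7 and 6.72 CPM in HA2, against 5.82, 16.2 and 1.22 CPM in CK. HA2 replicate 3 lay above all CK libraries in the first gene and within the CK range in the other two. The organic acid list as a whole had 4 of 43 members apart and higher and 4 lower (2 and 12 scaled by total count), with a median of -0.08. Potassium transporter 5 (Rru06G044580), a high-affinity carrier, had 346.6, 226.6 and 38.95 CPM in HA2, against 5.14, 27.02 and 2.73 CPM in CK. Sulfate transporter 3.1 (Rru06G041480) had 147.8, 107.1 and 30.3 CPM in HA2, against 24.8, 23.98 and 15.5 CPM in CK. Both were higher in all HA2 libraries, and the potassium and sulfate list held 4 of 41 members apart and higher and 1 lower (2 and 5 scaled by total count). Its higher share, 9.76%, was near the 11.0% of all genes.

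**Figure D4:**
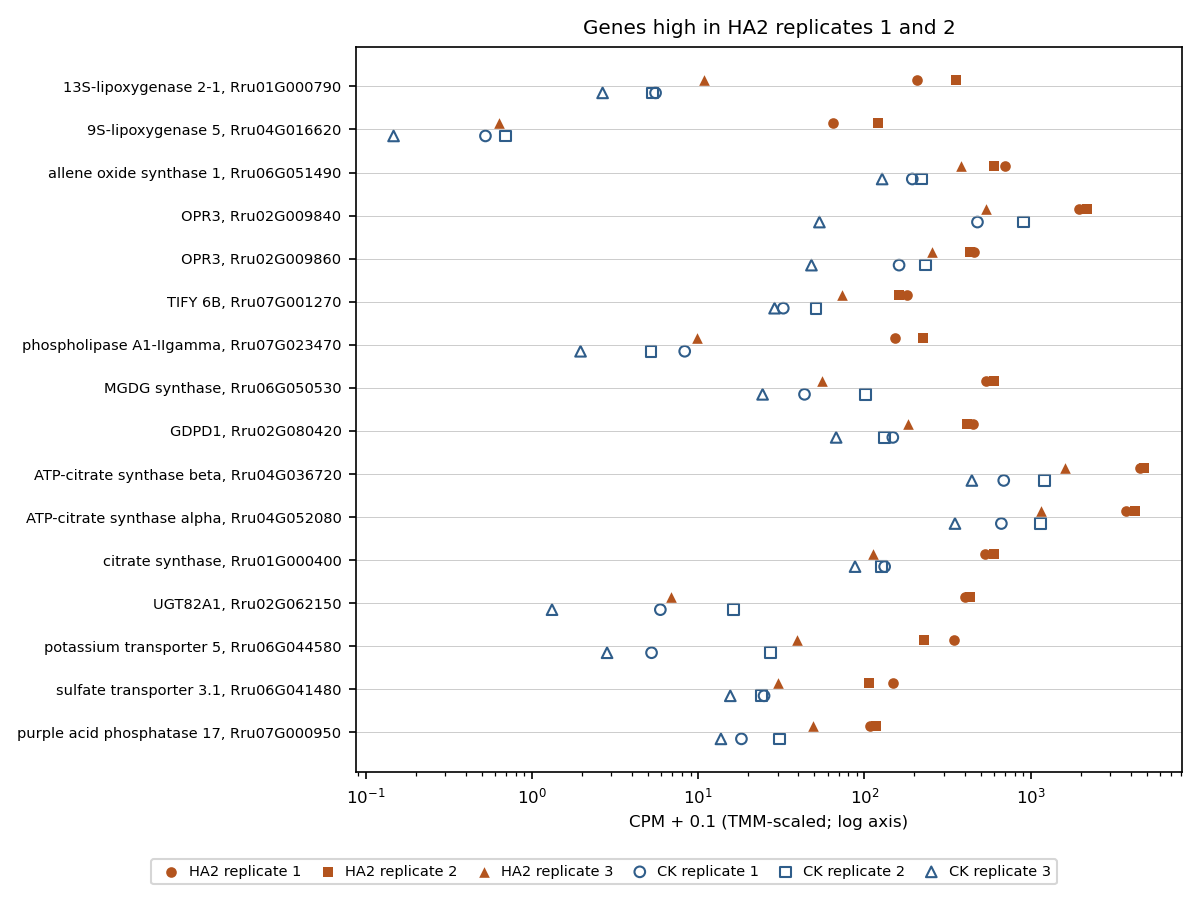
CPM + 0.1 on a log axis in each library for 16 genes of jasmonate synthesis, lipids, citrate, glycosylation, transport and phosphatase, with filled symbols for HA2 above open symbols for CK. HA2 replicates 1 and 2 lie to the right in each row, and replicate 3 lies nearer to CK, as for UGT82A1 with 6.72 CPM in HA2 replicate 3 and up to 16.2 CPM in CK.

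Mycorrhiza-type genes were mostly near 0 in CK. Of 46 in the table, 44 had any count and 31 passed the filter on low counts. Of the 31, 13 were apart and higher and 0 lower (8 and 0 scaled by total count), with a median of 1.53. DESeq2 called 13 higher, where it called 6.65% of all genes higher. A gene near 0 in CK could pass the filter only through libraries where it was high, so these counts and the median are a description that the filter favoured. At 0 were 0, 4 and 0 of the 31 in HA2, and 2, 11 and 9 in CK. Low affinity inorganic phosphate transporter 4, which in Medicago takes up phosphate delivered by the fungus, is present as a pair with adjacent identifiers. One gene (Rru01G053270) had 18.7, 0.666 and 18.6 CPM in HA2, against 0.149, 0 and 0 CPM in CK, and the other (Rru01G053280) had 7.28, 0.2496 and 15.8 CPM in HA2, against 0.0637, 0 and 0 CPM in CK. Phosphate transporter 8 (Rru01G047790) had 3.36, 0.277 and 7.94 CPM in HA2, against 0.255, 0 and 0.141 CPM in CK. HA2 replicates 1 and 3 were high, replicate 2 was just above CK, and CK held from 0 to 12 counts per library in these genes. Folds are not given for such genes, because a fitted fold near 0 depends on the prior count, and reads may be split where copies are alike in sequence.

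The genes for lipid supply to the fungus followed the same order. RAM2, a glycerol-3-phosphate acyltransferase that in Medicago makes lipid for the fungus, had one gene (Rru04G055040) with 0.899, 0.222 and 8.77 CPM in HA2, against 0.0425, 0 and 0.04703 CPM in CK. A second RAM2 gene (Rru02G075040) had 0.957, 0.166 and 5.87 CPM in HA2, against 0.0425, 0 and 0 CPM in CK. The half-transporters STR (Rru07G001290) and STR2 (Rru07G039500) act together at the arbuscule membrane in Medicago. STR had 3.799, 0.2496 and 23.1 CPM in HA2, against 0.255, 0 and 0 CPM in CK, and STR2 had 2.03, 0 and 8.697 CPM in HA2, against 0.0849, 0 and 0 CPM in CK. HA2 replicate 3 was the highest library in each, followed by replicate 1. Replicate 2 overlapped CK for STR and STR2. Ammonium transporter 2 member 5 had a gene (Rru06G015070) with 3.94, 0 and 14.3 CPM in HA2, against 0.106, 0.113 and 0 CPM in CK. The GRAS regulator RAM1 (Rru02G080350) had 0.435, 0.166 and 3.703 CPM in HA2, against 0.3397, 0 and 0.188 CPM in CK. VAPYRIN (Rru03G042370), needed for fungal entry in petunia, had 2.67, 1.14 and 3.53 CPM in HA2, against 0.446, 0.369 and 0.3998 CPM in CK, a log2 fold change of 2.58 ± 0.41. For VAPYRIN replicate 2 was again the lowest HA2 library, yet above all of CK.

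Genes from other lists shared this order among libraries. The cysteine protease SAG39 (Rru02G042080) had 11.2, 0.721 and 23.8 CPM in HA2, against 0.127, 0 and 0 CPM in CK. A plasma membrane proton pump (Rru07G024270) had 6.53, 0.2496 and 29.2 CPM in HA2, against 0.318, 0 and 0 CPM in CK. Glutathione S-transferase U19 (Rru05G060100) had 18.1, 0.499 and 30.4 CPM in HA2, against 0.573, 0 and 0.04703 CPM in CK. In all 3 HA2 replicate 3 was the highest and HA2 replicate 2 near CK. NRT1/PTR 4.6 (Rru05G010560) had 1.22, 0.0555 and 18.3 CPM in HA2, against 0.106, 0.113 and 0 CPM in CK, with a high value only in HA2 replicate 3. The mycorrhiza-type list also holds blue copper proteins, which are known outside this setting as well, and one of them (Rru02G003490) had 936.7, 685.8 and 313.1 CPM in HA2, against 180.4, 221.6 and 130.6 CPM in CK. RAM2, STR, STR2, RAM1, the ammonium transporter and NRT1/PTR 4.6 were chosen after their values were seen. Without HA2 replicate 3, edgeR called 3 of the 31 mycorrhiza-type genes higher, against 4.70% of all genes, and the list median was 1.76.

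**Figure D5:**
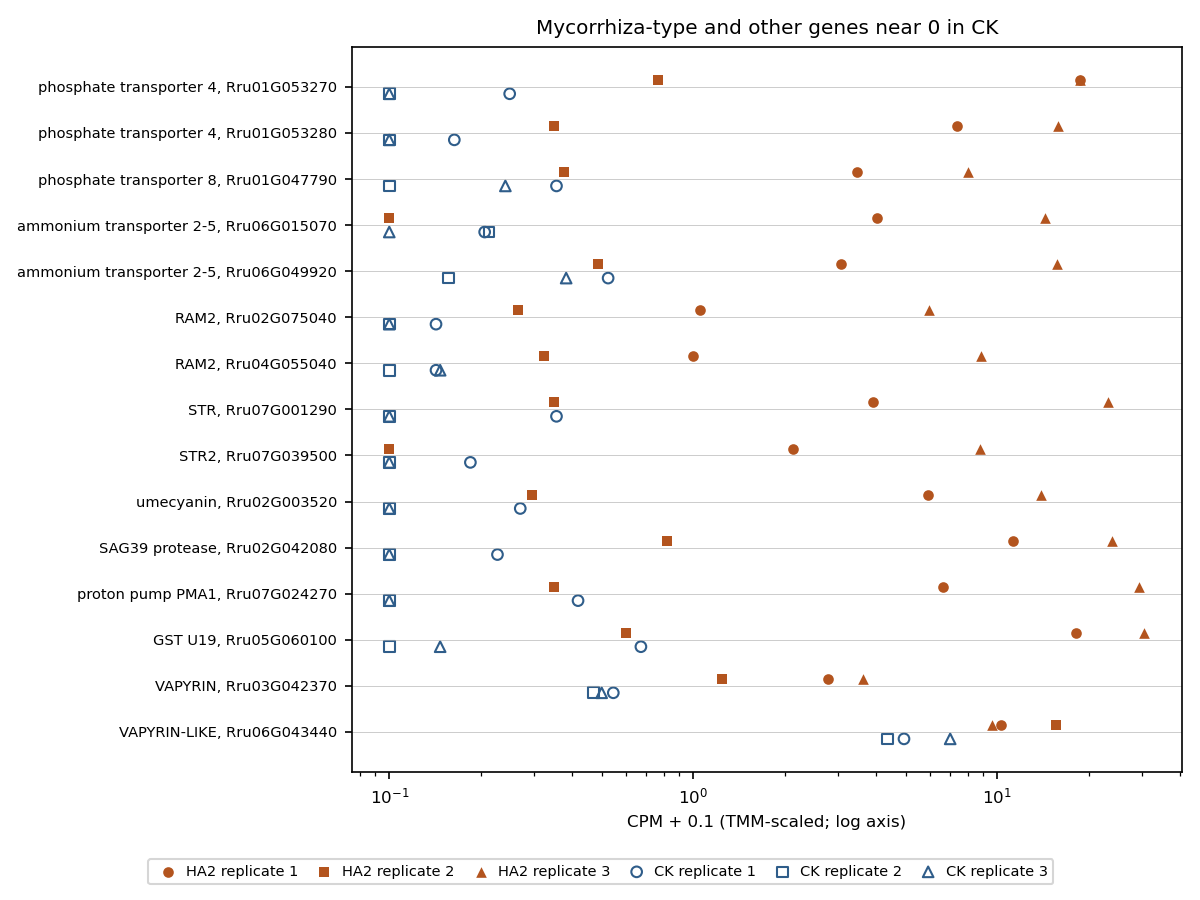
CPM + 0.1 on a log axis in each library for 13 genes that were near 0 in CK and for VAPYRIN and VAPYRIN-LIKE, with filled symbols for HA2 above open symbols for CK. HA2 replicates 1 and 3 lie to the right, up to 30.4 CPM for GST U19, and HA2 replicate 2 lies at 0 to 1.14 CPM except for VAPYRIN-LIKE at 15.5 CPM.

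Nitrogen transport and assimilation genes lay on both sides. Of 92 tested, 16 were apart and higher and 11 lower (11 and 18 scaled by total count), with a median of 0.17. Ammonium transporter 1 member 1 (Rru04G008850), a root ammonium carrier, had 126.2, 121.2 and 99.6 CPM in HA2, against 62.9, 59.02 and 47.4 CPM in CK. High-affinity nitrate transporter 2.1 (Rru05G050730) had 30.4, 30.98 and 30.5 CPM in HA2, against 13.3, 17.01 and 10.1 CPM in CK. Its partner protein, nitrate transporter 3.1 (Rru07G013610), had 380.7, 387.2 and 384.3 CPM in HA2, against 194.3, 309.1 and 146.2 CPM in CK. All 3 genes had close HA2 values above every CK library, and both nitrate genes were chosen after their values were seen. NRT1/PTR 5.2 (Rru04G007530) had 79.1, 60.1 and 40.7 CPM in HA2, against 13.9, 31.2 and 15.3 CPM in CK. Asparagine synthetase 2 (Rru02G028120) had 2.96, 3.38 and 3.46 CPM in HA2, against 5.63, 5.33 and 6.35 CPM in CK, below every CK library.

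Metal and water genes varied by member. The list of iron, zinc and copper handling had 9 of 93 members apart and higher and 7 lower (4 and 21 scaled by total count). Zinc transporter 6 (Rru05G062860) had 48.95, 57.5 and 45.2 CPM in HA2, against 24.8, 22.8 and 25.05 CPM in CK. Nicotianamine aminotransferase 1 (Rru02G040520) had 10.4, 5.52 and 2.27 CPM in HA2, against 0.5095, 1.11 and 0.823 CPM in CK, where nicotianamine synthase went the other way. Aquaporins had 3 of 22 members apart and higher and 4 lower (the same numbers scaled by total count), with a median of 0.67. A TIP-type aquaporin of the vacuole membrane (Rru07G023410) had 25.3, 9.73 and 34.1 CPM in HA2, against 2.63, 3.83 and 0.588 CPM in CK, and NIP6-1 (Rru02G045450), a boron channel in Arabidopsis, had 3.16, 3.05 and 3.58 CPM in HA2, against 8.92, 4.65 and 5.97 CPM in CK.

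The other hormone lists held single members with wide gaps between groups. Ethylene genes had 13 of 116 apart and higher and 7 lower (5 and 10 scaled by total count) with a median of 0.47. The higher share, 11.2%, was near the 11.0% of all genes. A gene named 1-aminocyclopropane-1-carboxylate oxidase homolog 1 (Rru04G005290), which the list takes in by name, had 37.99, 35.1 and 27.9 CPM in HA2, against 13.2, 15.3 and 10.3 CPM in CK. Whether this gene acts in ethylene synthesis was not tested. Its copy with an adjacent identifier (Rru04G005280) had 35.8, 33.4 and 26.3 CPM in HA2, against 14.1, 15.8 and 11.8 CPM in CK, and reads may be split between them. Gibberellin 2-beta-dioxygenase 2 (Rru03G034020), which inactivates gibberellin, had 76.4, 56.99 and 28.5 CPM in HA2, against 3.72, 17.8 and 3.904 CPM in CK. Every HA2 library was higher there, and the gibberellin list held 5 of 21 members apart and higher and 1 lower (3 and 2 scaled by total count). The abscisic acid list had 3 of 19 apart and higher and 1 lower (2 and 3 scaled by total count). The abscisic acid receptor PYL4 (Rru03G012080) had 281.1, 233.4 and 266.8 CPM in HA2, against 88.02, 170.9 and 142.2 CPM in CK, while PYL8 (Rru01G053450) had 18.6, 18.6 and 32.3 CPM in HA2, against 36.4, 41.3 and 36.3 CPM in CK. Beta-carotene isomerase D27 (Rru06G041050), the first enzyme of strigolactone synthesis, had 19.4, 7.27 and 2.17 CPM in HA2, against 0.1698, 1.25 and 0.141 CPM in CK. Its values were spread widely, and 1 of 9 strigolactone genes was apart in each direction. The auxin list had 5 of 92 members apart and higher and 7 lower (3 and 17 scaled by total count). Auxin-repressed 12.5 kDa protein (Rru05G007550) had 158.9, 242.0005 and 312.2 CPM in HA2, against 748.3, 502.2 and 1209 CPM in CK. Cytokinin genes had 1 of 34 apart and higher and 3 lower (0 and 7 scaled by total count), and 2 of the lower ones, both named APRR5, are clock-type response regulators and not cytokinin genes. One APRR5 gene (Rru01G055400) had 74.6, 50.2 and 102.7 CPM in HA2, against 321.5, 156.7 and 434.3 CPM in CK, a log2 fold change of -2.00 ± 0.41.

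Cell surface receptor kinases and disease resistance genes formed the largest lists, with more members apart and higher than lower under TMM scaling. Receptor kinases had 62 of 321 apart and higher (19.3%) and 14 lower (37 and 31 scaled by total count), with a median of 0.29, and the library levels were 0.16, 0.16 and 0.18 in HA2, against 0.00, 0.07 and -0.03 in CK. Cysteine-rich receptor-like kinase 29 (Rru05G003780) had 4.21, 3.72 and 2.78 CPM in HA2, against 0.955, 1.39 and 1.08 CPM in CK. Disease resistance genes of the NLR and RPW8 types had 112 of 592 apart and higher (18.9%) and 32 lower, with a median of 0.16. Scaled by total count the numbers were 43 and 82, so which of the 2 counts is larger rests on the scaling. The list median lay 0.19 above that of all genes with TMM and 0.20 above it with total count. TMV resistance protein N (Rru06G020410), of the TIR type of immune receptors, had 75.6, 70.8 and 46.3 CPM in HA2, against 29.7, 33.9 and 25.4 CPM in CK. WRKY transcription factors had 11 of 57 apart and higher and 4 lower (7 and 8 scaled by total count). WRKY transcription factor 6 (Rru02G066440) had 120.01, 118.4 and 111.9 CPM in HA2, against 52.2, 80.2 and 41.1 CPM in CK, and WRKY 13 (Rru02G031260) had 2.61, 5.35 and 4.21 CPM in HA2, against 13.01, 11.7 and 14.2 CPM in CK. The first was higher and the second lower in every HA2 library. An endochitinase (Rru06G032110), of the enzymes that cut fungal cell walls, had 38.6, 37.1 and 11.7 CPM in HA2, against 0.679, 2.07 and 2.78 CPM in CK.

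Calcium genes had 41 of 219 apart and higher and 20 lower (23 and 37 scaled by total count), with a median of 0.27. The endoplasmic reticulum pump calcium-transporting ATPase 4 (Rru05G055280) had 19.7, 21.9 and 30.4 CPM in HA2, against 10.3, 12.1 and 10.9 CPM in CK. Cyclic nucleotide-gated ion channel 1 (Rru01G036000) had 98.6, 89.2 and 81.9 CPM in HA2, against 35.9, 53.8 and 32.3 CPM in CK. In both, every HA2 library lay above every CK library.

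Of 93 triterpenoid and sterol genes tested, 18 were apart and higher and 4 lower (13 and 10 scaled by total count), with a median of 0.31. DESeq2 called 17 higher and 0 lower, against 6.65% and 2.46% of all genes. Beta-amyrin 28-monooxygenase, which oxidises the triterpene beta-amyrin, was represented by several genes. One (Rru05G015520) had 1772, 1865 and 916.5 CPM in HA2, against 455.7, 738.99 and 272.1 CPM in CK, and another (Rru01G033130) had 12.6, 4.33 and 2.36 CPM in HA2, against 0.531, 0.6803 and 0.4703 CPM in CK. Squalene synthase 2 (Rru06G018770), which makes the precursor of triterpenes, had 2174, 2280 and 881.5 CPM in HA2, against 366.7, 1009 and 155.2 CPM in CK. It was chosen after its values were seen, and CK replicate 2 exceeded HA2 replicate 3. Whether reads were split between the monooxygenase genes is not known. Phenylpropanoid genes had 10 of 137 apart and higher and 8 lower (9 and 21 scaled by total count), and their library levels were 0.19, 0.34 and -0.27 in HA2, against 0.12, -0.02 and -0.11 in CK. Cinnamoyl-CoA reductase-like SNL6 (Rru07G028350) had 36.8, 24.7 and 48.3 CPM in HA2, against 125.1, 58.2 and 119.1 CPM in CK. Flavonoid genes had 9 of 69 apart and higher and 4 lower (6 and 9 scaled by total count), with a median of -0.20. Cytochrome P450 genes had 22 of 163 apart and higher and 13 lower (15 and 27 scaled by total count). UDP-glycosyltransferases had 13 of 75 apart and higher and 6 lower (8 and 12), and ABC transporters 18 of 118 and 6 (9 and 15). Glutathione S-transferases had 1 of 64 apart and higher and 12 lower (0 and 19 scaled by total count). Their other measures did not share that direction, with a median of 0.02, 32 members above 0 and 32 below, and 2 called higher and 0 lower by DESeq2. Peroxidases and antioxidant enzymes had 4 of 97 apart and higher and 12 lower (3 and 20 scaled by total count), but a median of 0.12, with 61 members above 0 and 36 below and 6 called higher and 2 lower by DESeq2. Over all genes DESeq2 called 6.65% higher and 2.46% lower. Among the lower peroxidases, peroxidase 21 (Rru03G017780) had 5.71, 3.38 and 19.3 CPM in HA2, against 46.2, 42.01 and 55.9 CPM in CK.

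Heat shock proteins had 13 of 85 apart and higher and 8 lower (7 and 18 scaled by total count). Heat shock 70 kDa protein 4 (Rru01G042900), a protein-folding chaperone, had 694.3, 704.1 and 815.05 CPM in HA2, against 357.8, 318.1 and 340.4 CPM in CK. Cell cycle genes had 9 of 182 apart and higher and 15 lower (1 and 33 scaled by total count), both shares below those of all genes. The 4 members with the lowest p lay on both sides. The kinesin motor protein KIN-14C (Rru07G007610) had 128.3, 103.001 and 7.53 CPM in HA2, against 4.501, 14.03 and 0.964 CPM in CK, and overlapped through HA2 replicate 3. Cyclin-dependent kinase inhibitor 7 (Rru02G019860), of a family that restrains division, had 3.596, 3.02 and 5.63 CPM in HA2, against 14.5, 5.81 and 26.998 CPM in CK. The D-type cyclins among these 4 members, of a family that starts the division cycle, had lower values in HA2. Other D-type cyclins were not counted. Cyclin-D3-3 (Rru02G021220) had 5.31, 7.0997 and 6.19 CPM in HA2, against 9.38, 17.2 and 11.7 CPM in CK, and Cyclin-D3-1 (Rru06G009370) had 20.4, 19.7 and 25.9 CPM in HA2, against 34.8, 51.5 and 37.2 CPM in CK. Ribosomal proteins had 2 of 189 apart and higher and 8 lower with a median of -0.10, below the shares of all genes in both directions, although 90 were apart and lower scaled by total count. Starch genes had 1 of 47 apart and higher and 2 lower (1 and 8 scaled by total count). Isoamylase 2 (Rru06G042810), of starch synthesis, had 4.84, 5.66 and 4.97 CPM in HA2, against 18.6, 6.24 and 23.8 CPM in CK. Beta-amylase 7 (Rru01G032970), which the list takes in by name, had 125.95, 127.4 and 83.8 CPM in HA2, against 29.4, 68.03 and 17.5 CPM in CK. In both genes CK replicate 2 was the CK library nearest to HA2. Cell wall genes had 13 of 153 apart and higher and 14 lower (7 and 23 scaled by total count), and the cell wall gene cellulose synthase-like protein G2 (Rru04G004780) had 280.6, 601.9 and 37.5 CPM in HA2, against 18.05, 16.6 and 17.1 CPM in CK.

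Among transcription factors, bHLH genes had 9 of 62 apart and higher and 8 lower (6 and 15 scaled by total count), MYB genes 1 of 76 and 5 (1 and 7), and NAC genes 6 of 59 and 7 (5 and 15). Sugar transport genes had 9 of 61 apart and higher and 6 lower (6 and 10), proteases 16 of 138 and 8 (12 and 15), and pathogenesis-related proteins 8 of 94 and 6 (4 and 12). The higher shares of these lists were 14.8%, 11.6% and 8.51%, against 11.0% of all genes. Proton pumps of the plasma membrane had 3 of 14 apart and higher and 1 lower (2 and 1).

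Lists for barriers and other tissues were read beside these results. Endodermal barrier and suberin genes had 21 of 111 apart and higher and 8 lower (9 and 20 scaled by total count), while CASP-like protein 2B1 (Rru05G000730), of the family that organises the Casparian strip, had 22.9, 25.9 and 26.3 CPM in HA2, against 52.9, 41.6 and 44.2 CPM in CK. Root hair genes had 3 of 11 apart and higher and 1 lower (0 and 1 scaled by total count). Green tissue markers, which should be low in roots, had 0 of 47 apart and higher and 10 lower (0 and 14 scaled by total count), with a median of -0.55. Their summed level was 66.0, 118 and 172 CPM in HA2, against 143, 219 and 258 CPM in CK, so the sums overlapped between the groups. The number of the 47 at 0 was 4, 2 and 2 in HA2 and 0, 2 and 1 in CK. Chlorophyll a-b binding protein 7 (Rru07G034840) had 0.986, 1.08 and 2.29 CPM in HA2, against 3.95, 2.38 and 4.49 CPM in CK. Xylem and phloem markers had 2 of 31 apart and higher and 5 lower (2 and 12 scaled by total count), and their summed level was 919.7, 875 and 447 CPM in HA2, against 760.2, 601 and 585 CPM in CK. The part of tissue makeup in the other results was not tested.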

How the data were processed

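Polyadenylated RNA from tender roots was sequenced on an Illumina NovaSeq, per the labels' protocols, in 3 libraries each of HA2, CK and HA1. The aligner, build and counting tool were not given in the sources used here. Whole-number read counts were deposited by the authors for 47983 genes, 13758 of them 0 in every library, and gene names are the Swiss-Prot descriptions in the deposited table, given for 23524 genes. No sample column was left unmapped, and none of the gene identifiers matched the RefSeq table, so no position or sequence is given. The authors' comparison with DESeq2, which they deposited with fold changes and false discovery rates, is cited only for its counts of genes.

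Counts were filtered with filterByExpr, scaled by TMM and fitted over all 9 libraries with edgeR 4.0.16 (quasi-likelihood, R 4.3.3), with the contrast of HA2 minus CK and Benjamini-Hochberg adjustment over 25260 genes at 0.05. SE is the log2 fold change divided by the square root of F. DESeq2 1.42.0 was an alternative, with other scalings, filters, library choices and leave-one-out fits. In data simulated for HA2 against CK on 24619 genes with 200 changed, edgeR recovered 10% of 2-fold and 79% of 4-fold changes, and 5 of 94 calls were genes that had not been changed. The simulated counts were drawn from the CK means, with a spread that followed the trend over all genes and not that of each gene. No simulated library was set apart from its group. The main fit held the group only and did not pair libraries, because the labels do not say that a replicate number pairs samples. The number entered only as a block in alternative settings. The deviations of same-numbered HA2 and CK libraries from their group means correlated at 0.12, 0.11 and 0.32, all above 0.1, the limit set for pairing. The 0.12 and 0.11 lie just above that limit, and HA2 replicate 1 did not correlate best with CK replicate 1, while the other two did with their own numbers. Any pairing by number comes from the data and not from the labels.

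The 45 gene lists are patterns in the descriptions, and the comparison and lists were chosen with earlier results of these data known. Named genes are those past the threshold, the 15 with the lowest p in each direction among described genes of at least 5 CPM whose groups were apart, and the 4 with the lowest p of each list, 195 in all, of which a selection is printed. A further 35 were chosen after their values were seen. Floors of 3 counts cover counting error only.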

Additional observations from a re-analysis of the deposited data

How the results depend on the processing

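The count of 1 gene between HA2 and CK by edgeR also held with scaling by median ratios and with no filter. It was 0 with scaling by total count, with at least 1 CPM in at least 3 libraries, with only the 6 libraries of HA2 and CK, with the replicate number as a block, and with that block and only those 6 libraries. DESeq2 gave 2303. Leaving out one library gave 0 to 1834, with 1834 without HA2 replicate 3, 1421 without CK replicate 2 and 0 for each of the others. By DESeq2, leaving out one library gave 443 to 4634, and those fits and the block with 6 libraries were added after the data were seen. The receptor kinase gene kept its direction in every setting and lost its edgeR call in 9. Genes whose groups were apart numbered 5511, and 6753 to 12387 with one library left out, which takes fewer values to separate. Those higher in HA2 numbered 2785, against 1214 with scaling by total count and 3277 to 6022 with one library left out. Those lower numbered 2726, against 5907 with scaling by total count and 3476 to 6365 with one library left out. HA2 against HA1 gave 0 genes in every setting run. Among the 230 named genes, none reversed, and 191 passed with DESeq2, 138 without HA2 replicate 3 and 95 without CK replicate 2 that did not pass by edgeR with all libraries. The block changed no other call. These genes were named for low p or after their values were seen, so the counts follow in part from that choice. Over all genes, 9.12% passed with DESeq2 and 7.11% by edgeR without HA2 replicate 3. The cause of these changes was not tested. In the simulated data, with 3 libraries a group, most 2-fold changes were missed. Those data held no library that differed from its group as HA2 replicate 3 and CK replicate 2 did. The simulated rates therefore need not hold for this comparison.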

Other observations

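A few genes of the circadian clock, the daily timer of plant cells, are given as values only. They were no list, other clock genes were not counted, and all but the second APRR5 gene were picked because of their lower values. Adagio protein 3 (Rru04G052790), a blue light receptor that targets clock and flowering proteins for degradation, had 34.5, 25.96 and 46.6 CPM in HA2, against 78.4, 86.8 and 94.4 CPM in CK, a log2 fold change of -1.28 ± 0.34 with an edgeR adjusted p of 0.134. A second APRR5 gene (Rru01G037860) had 10.8, 8.098 and 10.9 CPM in HA2, against 17.1, 13.4 and 20.6 CPM in CK. Both lay below every CK library in all 3 HA2 libraries, as did the APRR5 gene described with the cytokinin list. GIGANTEA (Rru06G026090), a clock protein that works with Adagio-type receptors in Arabidopsis, had 171.4, 163.7 and 339.2 CPM in HA2, against 363.2, 258.02 and 380.6 CPM in CK. REVEILLE 5 (Rru01G034310), a MYB-type factor of the clock family, had 13.2, 14.9 and 33.1 CPM in HA2, against 44.6, 21.7 and 62.02 CPM in CK. LNK3 (Rru01G010430) had 25.2, 36.2 and 59.03 CPM in HA2, against 54.1, 57.1 and 106.3 CPM in CK. In these last genes HA2 replicate 3 was the highest of HA2 and lay within the CK range. The hour of sampling is not given in the sources used here, and its part in these values was not tested.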
